A study of Mus musculus with 12 samples.

Results

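Mesenchymal cells of the mouse small intestine were compared in the untreated state with and without MyD88, in 3 MyD88ko and 3 wild-type (wt) libraries that make up 6 of the 12 samples of the series. All genes entered the comparison: its table lists 14340 of the 14907 genes in any table of the series, and 12385 were tested, those measured in each of the 12 samples whose mean reached 10 in some group. Per the labels, both groups were of strain C57/Bl6 and carried the floxed allele MyD88F/F and the reporter RosamTmG, and the knockout carried ColVIcre in addition (ColVIcre-MyD88F/F-RosamTmG). Both were primary cultures at passage 3, selected by a GFP sort, kept without serum overnight and given no LPS. The matching LPS groups, 3 libraries each, received 2 µg/ml of bacterial lipopolysaccharide for 6 hours and serve here only as values set beside the untreated ones. The animals' age and whether replicates came from separate animals or cultures are not given in the sources used here, so p-values measure the spread between these libraries, which may be technical.

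In the RosamTmG reporter, GFP appears only after Cre has acted, and ColVIcre acts in a part of the mesenchyme. The design text calls the wt cells Cre-positive, whereas their genotype label names no Cre. The GFP sort named for both groups requires Cre, so the wt label and the sort are in conflict. If the label is right, deletion of MyD88, the presence of Cre and the part of the mesenchyme sorted cannot be told apart here.

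MyD88 is the adaptor protein that couples most Toll-like receptors and the interleukin-1 receptor family to the kinases that release NF-κB and activate MAP kinases. Its best known targets in fibroblasts are chemokines, acute-phase proteins and NF-κB feedback regulators, and TLR4, the receptor for lipopolysaccharide, can also signal through the adaptor TRIF (Ticam1). Mesenchymal cells of the gut build the matrix under the epithelium and secrete growth factors and Wnt and BMP antagonists that act on the epithelial stem cells above them. The comparison asks which of these genes differed before any LPS was added.

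Values are read counts per gene from 3′ libraries, normalized across libraries and rounded by the authors, and each value below is such a normalized value unless another scale is named. Estimated depth was 3.12 to 3.84 megareads in wt and 3.56 to 5.06 megareads in MyD88ko. Differences are MyD88ko minus wt on the scale log2(value + 1), with the standard error (SE) of limma, n = 3 per group, and folds are on the same scale, which understates the fold of a gene with low values. The threshold for a call was an adjusted p (Benjamini-Hochberg, over all genes tested) under 0.05.

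The wt libraries were not alike. The 12 fibroblast markers, led by collagen genes, summed to 53635, 105079 and 45329 in wt libraries 1, 2 and 3, and to 92453, 115987 and 108073 in MyD88ko. All 12 were above 0 in every library, so the labelled cell type was present throughout. Of 34 epithelial markers 17 are in the tables, and these summed to 662, 27 and 1198 in wt and to 34, 25 and 33 in MyD88ko. The epithelial cadherin Cdh1 stood at 3, 0 and 719 in wt and at 2, 0 and 0 in MyD88ko. The 5 of 12 listed luminal epithelial regulators in the tables, Gata3 among them, summed to 1348, 36 and 450 in wt and to 5 to 11 in MyD88ko. Wt libraries 1 and 3 were thus high in epithelial-type genes and low in the collagen-led fibroblast sum. Wt library 2 was within the knockout range for both the epithelial and the fibroblast sums. Its luminal regulators, at 36, were above the knockout range, and Gata3 within them stood at 23. Not every fibroblast marker followed the sum: Pdgfra, given below, was higher in each wt library than in any MyD88ko library. Other marker lists differed as well. Endothelial markers (4 of 12 measured) summed to 83, 61 and 71 in wt and to 125, 136 and 107 in MyD88ko. Mesothelial markers (2 of 7, from a list that shares Krt19 with the epithelial one) summed to 172, 17 and 74 against 14, 11 and 12. Markers of interstitial cells of Cajal (2 of 4) summed to 25, 9 and 16 against 3, 1 and 4. The groups do not overlap for any of these 3 lists, and their part in the results was not tested. With so few members, these sums do not show that cell types differed. Markers of enteric glia and neurons overlapped, at 784, 642 and 1019 against 693, 424 and 513, and leukocyte markers summed to 42 to 75 in all 6 libraries. Across genes, wt library 2 correlated with the knockout libraries at Pearson r = 0.933 to 0.945 and with wt libraries 1 and 3 at 0.931 and 0.932, where genes are not independent replicates. The difference from wt library 2 alone is therefore given beside many of the results below. For other called genes only the call with all 3 wt libraries is given, which may not hold against wt library 2 alone. In bulk RNA, fewer cells of a type and less RNA per cell cannot be told apart.

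**Figure D1:**
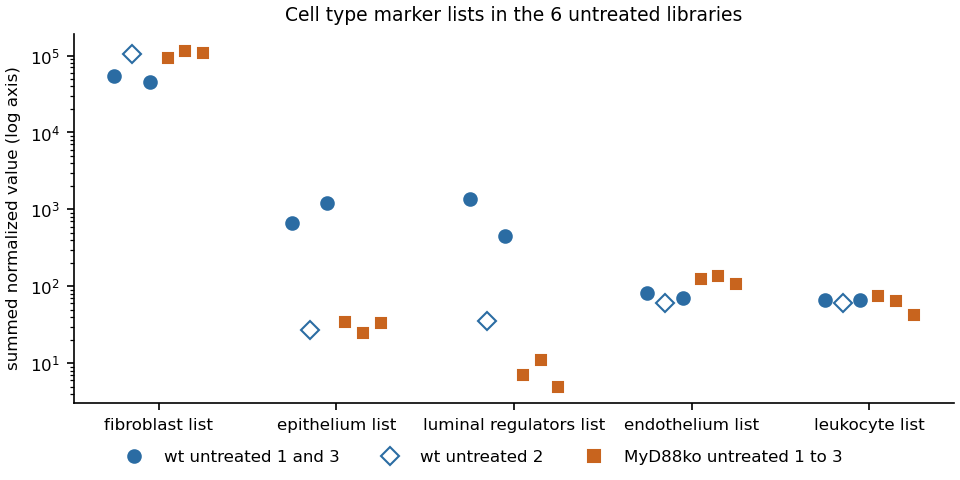
Summed normalized values of 5 marker lists (log axis) in the 3 wt (blue; library 2 as an open diamond) and 3 MyD88ko (orange squares) untreated libraries. On the epithelial list wt library 2 stands at 27, among the MyD88ko libraries at 25 to 34, and wt libraries 1 and 3 at 662 and 1198.

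Between the untreated genotypes, 966 of the 12385 genes tested were lower in MyD88ko and 957 were higher at an unadjusted p under 0.05 (limma). Counts by this unadjusted test in the lists below are to be read beside these. At the threshold for a call 233 genes were called, 1.88% of those tested. Of these, 135 were lower in MyD88ko (1.09%) and 98 were higher (0.791%). With all 3 wt libraries, the genes that were lower differed more. Their median fold was 5.4 (5.31 without the 3 that were listed at 0 in all MyD88ko libraries), and 83 differed at least 4-fold. The genes that were higher had a median fold of 2.11, and 6 of them differed at least 4-fold. The libraries of the genotypes did not overlap for any of the 233, against 20.4% of all genes tested. It follows that wt library 2 lay outside the MyD88ko range for all 233, as it did in the direction of the difference for 48.0% of all genes. Against wt library 2 alone, 114 of the 135 lower genes and 43 of the 98 higher genes still differed at least 2-fold. The difference shrank by more than 1 on the log2 scale for 40 of the lower genes and 1 of the higher genes. Refitted without wt libraries 1 and 3, which leaves 1 wt library and assumes that it varies like the other groups, 37 genes were called (0.299%), among them 19 of the 135 and 7 of the 98.

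**Figure D2:**
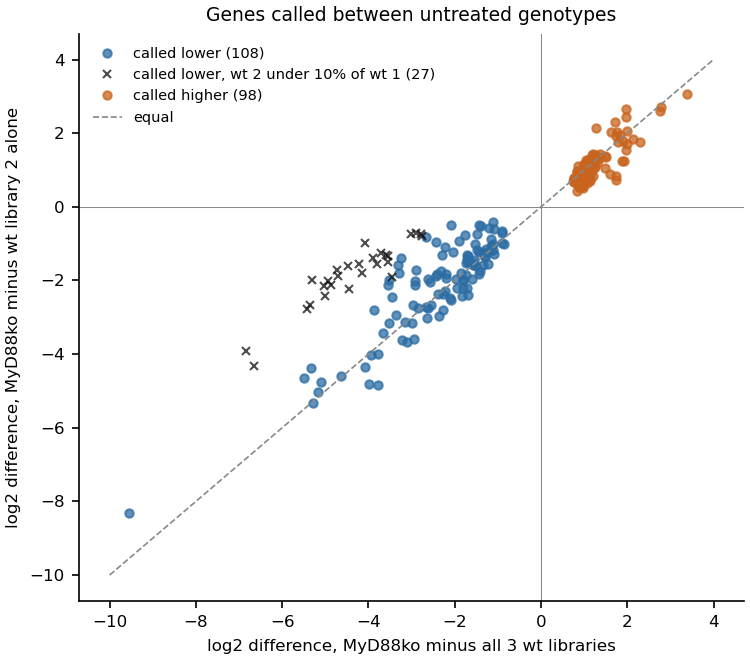
Log2 difference of the 233 called genes from all 3 wt libraries (x axis) and from wt library 2 alone (y axis), with the line of equal values. Genes called higher (orange) and 108 of those called lower (blue) scatter about the line, and 27 genes whose value in wt library 2 was under 10% of that in wt library 1 (crosses) lie above it.

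The deleted gene checked the labels. Myd88 (chromosome 9) stood at 99, 98 and 103 in wt and at 14, 8 and 10 in MyD88ko, so every knockout library was low and the wt libraries were alike (−3.15 ± 0.43, adjusted p = 0.000471, and −3.12 from wt library 2 alone, adjusted p = 0.0634). Which exons the floxed allele removes is not given in the sources used here, so these 3′ reads may lie outside the deleted part and do not measure the deletion itself. Of the other 14 tested members of the TLR4 complex and its adaptors none was called by limma, and 3 members in all were lower and 1 higher at an unadjusted p under 0.05. The receptor itself, Tlr4, stood at 124, 233 and 165 in wt and at 131, 107 and 113 in MyD88ko, with overlapping groups (adjusted p = 0.549). Ly96, the lipopolysaccharide-binding partner of TLR4, stood at 27, 20 and 19 against 10, 8 and 3, which do not overlap but missed the threshold (adjusted p = 0.106). Ticam1, the adaptor of the TRIF arm, stood at 23, 36 and 27 against 41, 41 and 59 (adjusted p = 0.309). None of 9 tested interleukin-1 family and other MyD88-linked receptors and ligands was called, and 3 were lower at an unadjusted p under 0.05. Il1rn, the secreted antagonist of interleukin-1, was the nearest, at 57, 93 and 117 in wt and 25, 40 and 35 in MyD88ko (adjusted p = 0.0986).

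Several chemokines were lower in MyD88ko without any LPS. Of 3 tested neutrophil-attracting CXC chemokines 2 were called, both lower. Cxcl5 stood at 464, 155 and 380 in wt and at 3, 7 and 12 in MyD88ko, so its lowest wt library, library 2, was still far above the highest knockout library. The difference was −5.34 ± 0.43 with all wt libraries and −4.38 from wt library 2 alone (adjusted p = 1.25e-05 and 0.000879, limma). Cxcl1, the mouse counterpart of the GRO chemokines, stood at 125, 54 and 222 against 14, 2 and 10 (−3.87 ± 0.55, adjusted p = 0.0027). From wt library 2 alone it was −2.80, and the call was lost (adjusted p = 0.115). The third, Cxcl2, was near 0 in all untreated libraries, at most 2.

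Of 9 tested CC chemokines 4 were called, all lower, and all 9 differences were below 0, with a median of −1.28 (−1.74 without Ccl20, listed at 0 in all MyD88ko libraries) beside 0.00 over all genes tested. Ccl11, the eosinophil attractant eotaxin, stood at 124, 102 and 115 in wt and at 3, 1 and 3 in MyD88ko. The wt libraries were alike, the groups were far apart, and the difference from wt library 2 alone, −5.02, was close to the full −5.17 ± 0.65 (adjusted p = 0.0498 and 0.000284). Ccl7, a monocyte attractant, stood at 347, 231 and 343 against 86, 69 and 45 (−2.21 ± 0.26, adjusted p = 0.000125). Its difference from wt library 2 alone was −1.83 and kept its call (adjusted p = 0.0437). The other monocyte attractant of the pair, Ccl2, stood at 500, 244 and 616 against 118, 43 and 33 (−2.91 ± 0.41, adjusted p = 0.00162). For Ccl2 the difference from wt library 2 alone was −2.12, with the call lost (adjusted p = 0.142). Ccl8 was low everywhere, with 34, 16 and 17 in wt and 6, 0 and 0 in MyD88ko (adjusted p = 0.00879). Cxcl12, which retains leukocytes and stem cells in stroma, was abundant and 2.55-fold lower, at 3284, 2718 and 2920 against 1957, 1006 and 794 (adjusted p = 0.0323). Its call was lost without wt libraries 1 and 3 (−1.23, adjusted p = 0.501).

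Acute-phase and antimicrobial genes had the lowest median of the pathway lists with at least 5 tested members. Of 13 tested members 7 were called, all lower, and all 13 differences were below 0. Their median was −2.78, −1.98 without the 5 members listed at 0 in every MyD88ko library, and −1.58 from wt library 2 alone. The 7 became 3 without wt library 1, wt library 3, MyD88ko library 2 or MyD88ko library 3, and 2 without wt libraries 1 and 3. Saa3 (chromosome 7, 46711998 to 46715700), an acute-phase apolipoprotein, stood at 5480, 1529 and 5461 in wt and at 0, 5 and 17 in MyD88ko. It was thus among the more abundant genes of wt cells and near 0 in the knockout. Wt library 2 was lower than the other wt libraries, and still far above the highest knockout library. The difference was −9.55 ± 0.95 (adjusted p = 0.000963), and −8.33 from wt library 2 alone (adjusted p = 0.0435). Cp, the copper ferroxidase ceruloplasmin, stood at 169, 126 and 86 against 3, 1 and 3. Its differences were −5.28 ± 0.58 and, from wt library 2 alone, −5.32 (adjusted p = 6.14e-05 and 0.0146).

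Lcn2, which binds bacterial iron carriers, stood at 97, 24 and 37 in wt and was listed at 0 in all 3 MyD88ko libraries (adjusted p = 0.000284). Its call was lost without wt libraries 1 and 3 (adjusted p = 0.0922). Ptx3, a soluble pattern-recognition protein of the pentraxin family, stood at 241, 214 and 235 against 109, 87 and 49 (−1.55 ± 0.36, adjusted p = 0.033), with −1.45 from wt library 2 alone and the call lost (adjusted p = 0.482). The wt libraries of Ptx3 were close together, and the groups did not overlap. Slpi, an antiprotease, and Steap4, a metal reductase, had 3 and 2 in wt library 2, 16 to 21 in the other wt libraries and 0 in the knockout, so in library 2 they were near the limit of what these libraries show. Serpina3g, a protease inhibitor of leukocytes and stroma, stood at 18, 17 and 17 against 6, 0 and 5 (adjusted p = 0.0409).

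Of 11 tested complement genes 3 were called lower and 1 higher, with a median of −1.59, and −1.999 from wt library 2 alone. C1ra, a protease of the first complement component, stood at 866, 1195 and 757 in wt and at 254, 323 and 348 in MyD88ko (−1.59 ± 0.23, adjusted p = 0.000858). Here wt library 2 was the highest, and the difference from it alone was larger, −1.96 (adjusted p = 0.0146). C1ra has a near-identical copy, C1rb, whose reads may not be fully separable. Serping1, the inhibitor of that protease, stood at 378, 583 and 356 against 92, 164 and 67 (−2.08 ± 0.35, adjusted p = 0.00353), with −2.53 from wt library 2 alone (adjusted p = 0.0437). C1s1, the partner protease, stood at 531, 855 and 672 against 194, 353 and 237 (adjusted p = 0.0393). Cd59a, which blocks the membrane attack complex, was the member that was higher, at 388, 372 and 407 in MyD88ko against 172, 230 and 204 (0.95 ± 0.22, adjusted p = 0.0286), and stayed called in 1 of the 6 fits that left out an untreated library. C3, the central component, stood at 161, 131 and 164 against 2, 16 and 10 and was not called (adjusted p = 0.21). With LPS it stood at 1, 8 and 326 in MyD88ko. Cfb, of the alternative pathway, stood at 186, 69 and 185 against 16, 23 and 9 (adjusted p = 0.0554).

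**Figure D3:**
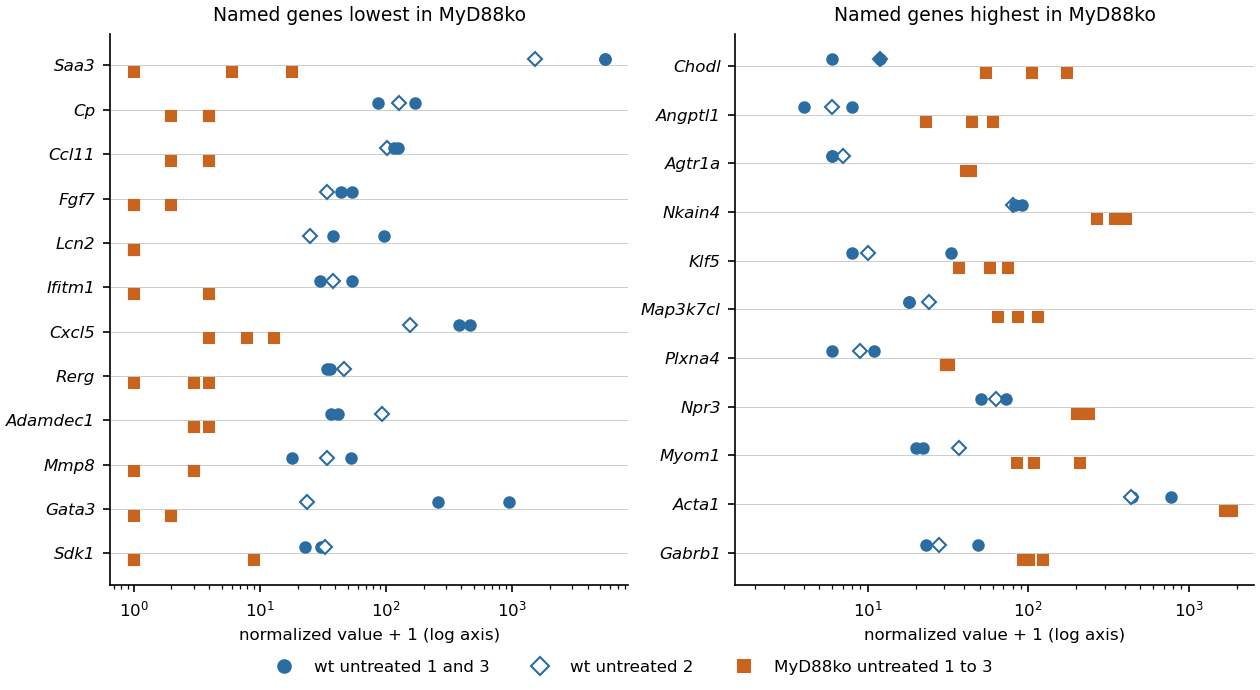
Normalized value + 1 (log axis) in each untreated library for the 12 named genes lowest (left) and 11 of the 12 highest (right) in MyD88ko, with wt in blue (library 2 as an open diamond) and MyD88ko in orange. The groups do not overlap for any of the genes drawn, and only for Gata3 is wt library 2 under 10% of wt library 1.

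Of 19 tested NF-κB subunits and feedback regulators 2 were called (10.5%, against 1.88% of all genes), both atypical IκB proteins that act in the nucleus. Nfkbiz stood at 48, 87 and 45 in wt and at 8, 9 and 15 in MyD88ko, with library 2 the highest of wt (−2.37 ± 0.36, adjusted p = 0.000963, and −2.96 from wt library 2 alone, adjusted p = 0.0146). Bcl3 stood at 50, 10 and 45 against 1, 3 and 1 (−3.55 ± 0.54, adjusted p = 0.000963), and lost its call without wt libraries 1 and 3 (−2.13, adjusted p = 0.33). The classical inhibitor Nfkbia, itself an NF-κB target, stood at 343, 157 and 261 against 192, 188 and 152, with overlapping groups (adjusted p = 0.378). Of 6 tested C/EBP factors 1, Cebpd, was called, at 164, 76 and 166 against 45, 37 and 54 (−1.49 ± 0.30, adjusted p = 0.0103), but its difference from wt library 2 alone was −0.75 (adjusted p = 0.69). Its relative Cebpb stood at 173, 112 and 181 against 80, 79 and 84, without overlap (adjusted p = 0.0596). None of 20 tested AP-1 and immediate-early genes was called by limma, and 3 were lower and 1 higher at an unadjusted p under 0.05.

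Of 39 tested interferon-stimulated genes 1 was called (2.6%), a share near the 1.88% of all genes. Their median difference was −0.09 untreated, 0.13 from wt library 2 alone and −0.66 with LPS. The member called was Ifitm1, a membrane protein that restricts viral entry, at 29, 37 and 53 in wt and 0, 0 and 3 in MyD88ko (−4.64 ± 0.62, adjusted p = 0.00038). Its difference from wt library 2 alone was −4.58 (adjusted p = 0.0563). None of 15 tested antigen presentation genes was called, with 2 lower and 1 higher at an unadjusted p under 0.05. Nor was any of 17 genes of the IL-6 family and its STAT3 feedback, with 3 lower and 1 higher by the unadjusted test. Il6 was at 15 or less in every untreated library, in wt at 8, 5 and 15.

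Of 6 other tested CXC chemokines and related receptors only Cxcl12 was called, and of 10 adhesion and co-stimulation genes only the adhesion molecule Alcam, at 60, 20 and 58 against 16, 13 and 7 (adjusted p = 0.0499).

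Of 12 tested prostaglandin genes the EP4 receptor Ptger4 and the prostaglandin E synthase Ptges were called, both lower. Ptger4 stood at 29, 31 and 27 against 7, 5 and 4, and Ptges at 169, 235 and 258 against 69, 119 and 53 (adjusted p = 0.0126 and 0.0373). From wt library 2 alone they were at −2.36 and −1.62 (adjusted p = 0.283 and 0.374). Neither stayed called without wt library 1, without MyD88ko library 3 or without wt libraries 1 and 3, and 1 of them did in each of the other 4 fits. Ptgs2, the inducible cyclooxygenase, stood at 596, 194 and 417 against 271, 141 and 161 and was not called (adjusted p = 0.421). Of 29 tested matrix proteases and inhibitors the gelatinase Mmp9 and the stromelysin Mmp3 were called, both lower. Mmp9 stood at 126, 262 and 144 in wt and at 17, 15 and 36 in MyD88ko, with wt library 2 the highest (−2.94 ± 0.38, adjusted p = 0.000299, and −3.58 from that library alone, adjusted p = 0.0104). Mmp3 stood at 27, 21 and 42 against 3, 1 and 2 (adjusted p = 0.0367). Adamdec1, a secreted ADAM-family protease, stood at 36, 92 and 41 against 3, 2 and 2 (−3.99 ± 0.59, adjusted p = 0.000858), and its difference from wt library 2 alone was −4.82 (adjusted p = 0.0272). The small GTPase Rerg stood at 33, 46 and 35 against 3, 0 and 2, and Mmp8, a collagenase, at 52, 33 and 17 against 0, 2 and 2 (adjusted p = 0.00115 and 0.0305).

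Promoter letters were compared for the called genes, from the RefSeq promoter table of build GRCm38.p6, which held 136 of the 233 called symbols. Cxcl5, Ccl2, Ccl7, Ccl11, Nfkbiz, Mmp9 and Tagln had no entry, so the shares below do not cover them. The C/EBP motif TTNNGCAA, searched on both strands in the 250 bases before each start, was present for 20 of 77 lower genes (26.0%), for 5 of 59 higher genes (8.5%) and for 8.8% of the 8923 tested genes with an entry. The NF-κB motif was present for 11.7% of lower, 15.3% of higher and 10.8% of all genes. For the AP-1 motif TGANTCA the shares were 9.1%, 1.7% and 5.4%, and for the serum response element known as the CArG box 1.3%, 5.1% and 1.5%. The interferon motif ISRE was in 6.5%, 3.4% and 3.2%, and the SP1 motif GGGCGG in 53.2%, 67.8% and 66.1%. Median GC content was 58.4%, 60.6% and 60.4%. These shares are descriptions without a test, and a match is not a binding site. The 5 stretches below run from 150 to 31 bases before the start, 5′ to 3′ on the gene's strand, and capitals mark the motif. The first 3 are lower genes with the C/EBP letters, followed by Cxcl1 with the NF-κB motif and Acta1, a gene that was higher, with the CArG box.

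Saa3 (chr7:46715707-46715826, minus strand): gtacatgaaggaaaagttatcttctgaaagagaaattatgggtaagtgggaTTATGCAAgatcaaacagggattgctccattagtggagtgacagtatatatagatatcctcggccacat
Ptx3 (chr3:66219737-66219856, plus strand): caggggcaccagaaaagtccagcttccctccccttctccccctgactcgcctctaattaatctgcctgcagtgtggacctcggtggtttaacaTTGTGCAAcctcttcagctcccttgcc
Pdgfra (chr5:75152101-75152220, plus strand): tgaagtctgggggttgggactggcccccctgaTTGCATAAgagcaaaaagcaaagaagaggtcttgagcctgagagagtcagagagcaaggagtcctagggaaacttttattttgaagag
Cxcl1 (chr5:90891095-90891214, plus strand): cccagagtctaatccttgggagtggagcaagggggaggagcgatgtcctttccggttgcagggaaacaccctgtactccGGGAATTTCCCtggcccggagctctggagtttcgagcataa
Acta1 (chr8:123894806-123894925, minus strand): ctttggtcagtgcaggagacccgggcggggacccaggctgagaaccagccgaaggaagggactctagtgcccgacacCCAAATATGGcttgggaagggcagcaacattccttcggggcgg

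Counted from the start, the C/EBP letters begin at −99 in Saa3, at −118 in Pdgfra and at −57 in Ptx3, and the CArG box of Acta1 begins at −73. The Cxcl1 capitals are overlapping matches that begin at −71 and −70.

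Growth factors that act on epithelium and vessels were lower in part. Of 29 tested, 7 were called and all 7 were lower, while the median of the list was −0.21, and −0.62 from wt library 2 alone. Fgf7, the keratinocyte growth factor made by mesenchyme for epithelium, stood at 53, 33 and 43 in wt and at 0, 0 and 1 in MyD88ko. The groups were far apart in every library, with −5.10 ± 0.49 for all wt libraries and −4.75 for library 2 alone (adjusted p = 1.06e-05 and 0.0133). Its relative Fgf10 stood at 222, 219 and 190 against 68, 130 and 69 (−1.30 ± 0.30, adjusted p = 0.0323). The wt values of Fgf10 were close together, and −1.36 from wt library 2 alone was much the same difference, with the call lost (adjusted p = 0.385). Vegfc, a lymphatic growth factor, stood at 316, 242 and 447 against 138, 87 and 77 (adjusted p = 0.00633). Angpt1, which stabilizes vessels, stood at 25, 16 and 17 against 1, 0 and 1, and Btc, an EGF receptor ligand, at 22, 33 and 22 against 7, 6 and 3 (adjusted p = 0.0352 and 0.0323). Kitl, the KIT ligand, stood at 158, 48 and 83 against 19, 22 and 19 (adjusted p = 0.0251). The 7th was Cxcl12. The 7 became 2 without wt library 1 or wt library 3, 3 without MyD88ko library 2 and 1 without MyD88ko library 3. Of the 7, only Fgf7 stayed called without wt libraries 1 and 3.

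Secreted Wnt antagonists were among the lower genes. Of 21 tested Wnt and BMP niche signals Frzb and Sfrp1, both secreted frizzled-related proteins, were called lower and Wnt5a, a ligand of the non-canonical pathway, higher. Frzb stood at 597, 745 and 650 against 172, 159 and 244 (−1.81 ± 0.26, adjusted p = 0.000833), and at −1.98 from wt library 2 alone (adjusted p = 0.0435). Sfrp1 stood at 88, 177 and 119 against 27, 29 and 19 (−2.27 ± 0.36, adjusted p = 0.00162), and at −2.80 from that library alone (adjusted p = 0.0324). Wnt5a stood at 871, 830 and 873 in MyD88ko against 429, 494 and 458 in wt, tight in both groups (0.90 ± 0.19, adjusted p = 0.0162, and 0.79 from wt library 2 alone, adjusted p = 0.404). Grem1, the BMP antagonist, stood at 4397, 3497 and 3075 against 2209, 2935 and 2082, without overlap and without a call (adjusted p = 0.16).

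Of 24 tested TGF-β pathway genes 1 was called higher and 3 lower. The ligand Tgfb3 stood at 503, 469 and 515 in MyD88ko and at 240, 292 and 201 in wt (1.03 ± 0.23, adjusted p = 0.0251). Lower were the co-receptor Tgfbr3, at 82, 72 and 93 against 22, 45 and 15, the decoy receptor Bambi, at 24, 18 and 12 against 3, 1 and 2, and the activin-binding Fst, at 56, 60 and 70 against 32, 15 and 9 (adjusted p = 0.0259, 0.0148 and 0.0343). None of these 4 stayed called without wt libraries 1 and 3, without wt library 1 or without MyD88ko library 3.

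In the insulin-like growth factor system, 2 of 16 tested genes were called lower and 1 higher. Igfbp4, a binding protein that holds IGF back, had the smallest p of all genes: 1098, 1631 and 1146 in wt against 230, 211 and 168 in MyD88ko. Both groups were tight, and wt library 2 was the highest (−2.65 ± 0.24, adjusted p = 6.83e-06, and −3.01 from library 2 alone, adjusted p = 0.000772). Pappa, the protease that cleaves Igfbp4, was higher in MyD88ko, at 237, 375 and 336 against 63, 167 and 98 (1.61 ± 0.33, adjusted p = 0.0142). From wt library 2 alone the Pappa difference was 0.89, with the call lost (adjusted p = 0.627). Igf2 stood at 22, 61 and 17 against 4, 1 and 0 (adjusted p = 0.0131), while Igf1 stood at 770, 1026 and 534 against 511, 426 and 499 and was not called (adjusted p = 0.191).

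Among 26 tested fibroblast identity genes Pdgfra and Ly6a were called, both lower. Pdgfra, the receptor that marks gut fibroblasts, stood at 355, 611 and 314 in wt and at 126, 158 and 73 in MyD88ko. Library 2, the wt library with the highest fibroblast marker sum, had the highest value, so the difference from it alone was the larger (−2.42, beside −1.84 ± 0.29, adjusted p = 0.00162). Ly6a, the surface antigen Sca-1, stood at 248, 163 and 194 against 67, 26 and 43 (−2.21 ± 0.36, adjusted p = 0.00188). Vim, the intermediate filament of mesenchymal cells, was not called, and stood at 9205, 10122 and 8878 in MyD88ko against 4763, 5726 and 4498 (adjusted p = 0.0596). Sod3, the extracellular superoxide dismutase, stood at 238, 229 and 139 against 78, 91 and 63 (−1.35 ± 0.25, adjusted p = 0.00538, and −1.57 from wt library 2 alone, adjusted p = 0.0498).

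Some contractile genes were higher in MyD88ko. Of 22 tested 4 were called, all higher, and 10 were higher and 0 lower at an unadjusted p under 0.05. The 4 became 2 without wt library 1 or wt library 3, 1 without MyD88ko library 2 or 3, and 0 without wt libraries 1 and 3. Their median difference was 0.47, and 0.34 from wt library 2 alone, against 0.00 and −0.01 over all genes. Tagln, an actin-binding protein of smooth muscle, stood at 4587, 6122 and 5090 in MyD88ko and at 2403, 2633 and 2586 in wt. The wt libraries were alike, and the differences were 1.04 ± 0.20 and, from wt library 2 alone, 0.99 (adjusted p = 0.00695 and 0.238). Cnn1, smooth muscle calponin, stood at 3285, 3035 and 3988 against 1999, 1832 and 1641 (0.91 ± 0.19, adjusted p = 0.0145). Flna, an actin crosslinker, stood at 9120, 10236 and 13432 against 5249, 6252 and 5197 (adjusted p = 0.0174), and Pdlim7 at 1193, 1701 and 1723 against 659, 814 and 827 (adjusted p = 0.0168). Acta2, smooth muscle actin, stood at 27514, 25700 and 29995 against 19984, 18144 and 17329, without overlap and without a call (adjusted p = 0.116). Acta1, the skeletal muscle actin, was called with and without wt libraries 1 and 3, at 1870, 1799 and 1694 against 442, 437 and 770 (1.75 ± 0.28 and 2.03 from wt library 2 alone, adjusted p = 0.00188 and 0.0324).

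The level of collagens depended on which wt libraries were compared. The median of 23 tested collagens was 0.40 with all wt libraries and −0.05 from wt library 2 alone. Col1a1, the main fibrillar collagen, stood at 27011, 52324 and 19270 in wt and at 47978, 56854 and 56726 in MyD88ko (adjusted p = 0.147), so wt library 2 lay within the knockout range. Only Col11a1 was called, at 188, 172 and 225 in MyD88ko against 90, 105 and 99 (0.98 ± 0.25, adjusted p = 0.0498), and its call was lost in each of the 6 fits that left out an untreated library. Without wt library 2, 6 collagens were called higher. In the LPS-treated wt libraries Col1a1 stood at 35191, 60610 and 36670. Their epithelial markers summed to 83, 105 and 81, beside 36, 33 and 72 in LPS-treated MyD88ko. Untreated and LPS-treated libraries of the same number are not known to be related. The part of epithelial-type RNA in the lower collagen of wt libraries 1 and 3 was not tested.

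Of 44 tested elastic-fibre, crosslinking and glycoprotein genes of the matrix 3 were called higher and 2 lower. The 3 became 12 without wt library 2, 5 without MyD88ko library 1, 1 without MyD88ko library 2 and 0 without MyD88ko library 3 or without wt libraries 1 and 3. The 2 became 1 without wt library 2 or MyD88ko library 2, and 0 without wt library 1, MyD88ko library 3 or wt libraries 1 and 3. The median was 0.43 with all wt libraries and −0.01 from wt library 2 alone. Lox, the collagen and elastin crosslinking oxidase, stood at 4266, 4499 and 5067 in MyD88ko against 2405, 2727 and 2144 (0.93 ± 0.18, adjusted p = 0.00844). Efemp2 and Fbln5, which guide elastic-fibre assembly, stood at 1045, 1241 and 1121 against 600, 569 and 593 and at 626, 982 and 585 against 309, 384 and 283 (adjusted p = 0.0101 and 0.0227). For all 3 the wt libraries, library 2 included, were close together. The proteoglycan Vcan and the basement membrane protein Nid2 were lower, at 518, 414 and 324 against 207, 164 and 159 and at 269, 357 and 241 against 155, 130 and 90 (adjusted p = 0.00711 and 0.0323).

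Among the genes that were highest in MyD88ko, Chodl, a membrane lectin, stood at 54, 173 and 104 in MyD88ko and at 5, 11 and 11 in wt (3.40 ± 0.48, adjusted p = 0.000607). From wt library 2 alone the difference was 3.06 (adjusted p = 0.0566). Agtr1a, a receptor for angiotensin II, stood at 43, 42 and 40 against 5, 6 and 5, with little spread in either group (2.75 ± 0.45, adjusted p = 0.00226, and 2.61 from wt library 2 alone, adjusted p = 0.119). Npr3, the clearance receptor for natriuretic peptides, stood at 200, 238 and 201 against 50, 62 and 72 (1.79 ± 0.27, adjusted p = 0.000963). Map3k7cl stood at 85, 64 and 115 against 17, 23 and 17, called with all wt libraries and with library 2 alone (2.13 ± 0.28 and 1.85, adjusted p = 0.000313 and 0.0498). Ntn4, a netrin of basement membranes, stood at 87, 71 and 85 against 16, 24 and 19 (2.00 ± 0.28, adjusted p = 0.000607).

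Myom1, a protein of the muscle M-band, stood at 108, 84 and 209 against 19, 36 and 21, and Nkain4, a partner of the sodium pump, at 347, 268 and 404 against 90, 80 and 82 (adjusted p = 0.00251 and 0.00501). Gabrb1, a GABA receptor subunit, stood at 92, 123 and 100 against 22, 27 and 48 (adjusted p = 0.00501). Angptl1, a secreted angiopoietin-like protein, stood at 22, 59 and 44 against 3, 5 and 7 (adjusted p = 0.0102). Plxna4, a semaphorin receptor, stood at 30, 31 and 30 against 10, 8 and 5 (adjusted p = 0.0349). The transcription factor Klf5 was only just apart, with its highest wt library at 32 and its lowest knockout library at 36 (adjusted p = 0.0352).

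Basic metabolism and proliferation gave few calls. Of 30 tested genes of cholesterol and fatty acid synthesis, 29 had differences below 0 and the median was −0.55, but from wt library 2 alone the median was −0.09. The only call was Elovl6, a fatty acid elongase, at 90, 51 and 88 against 21, 6 and 12 (−2.57 ± 0.45, adjusted p = 0.00391). The median of 37 cell cycle genes changed sign, from −0.39 with all wt libraries to 0.14 from wt library 2 alone, and none was called, with 2 lower and 4 higher at an unadjusted p under 0.05. None of 29 glycolysis and hypoxia genes, 27 genes of the unfolded protein response, 31 proteasome genes or 7 S100 genes was called by limma. At an unadjusted p under 0.05, 8, 8, 4 and 1 of them differed in either direction, beside 966 lower and 957 higher of all 12385 genes tested.

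**Figure D4:**
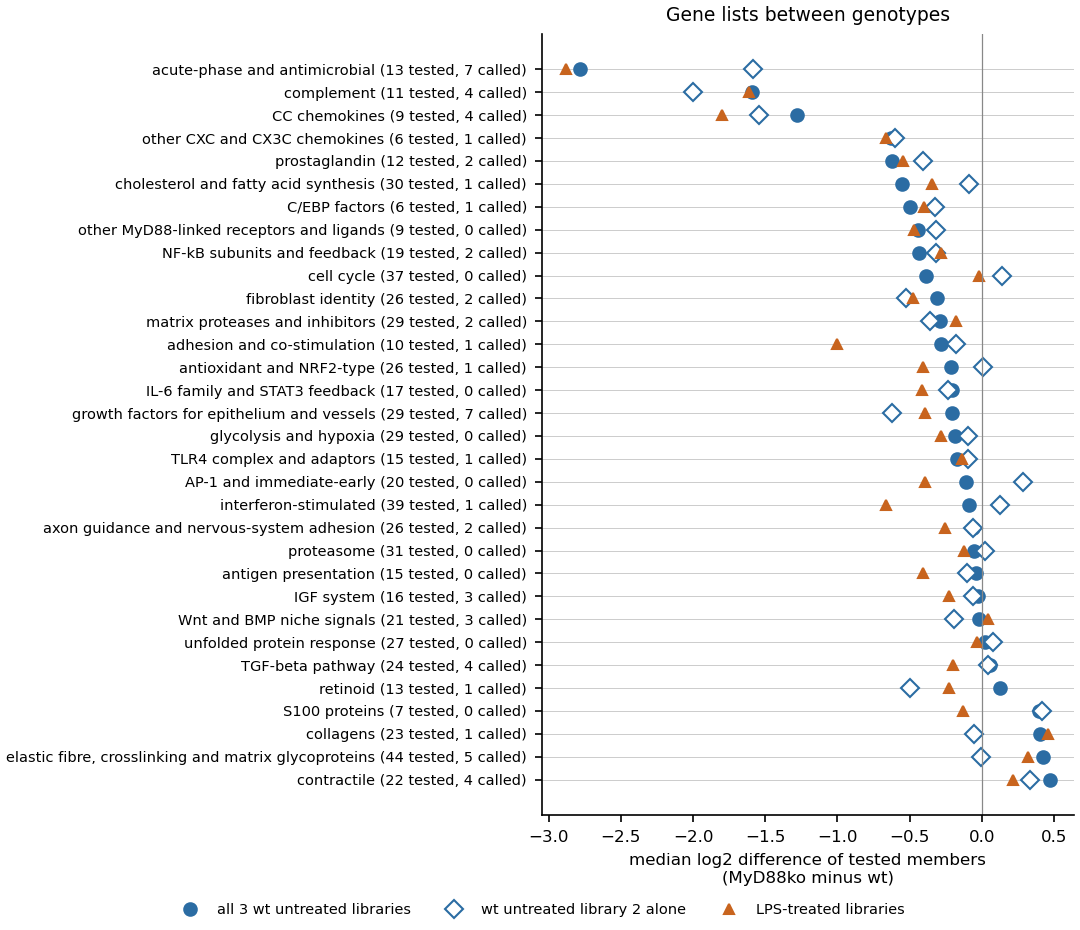
Median log2 difference (MyD88ko minus wt) of the tested members of each pathway list with at least 5 of them, for all 3 wt untreated libraries (filled circles), wt library 2 alone (open diamonds) and the LPS-treated libraries (triangles). Acute-phase, complement and CC chemokine genes have the lowest medians of these pathway lists on all 3 measures, and collagens stand at 0.40, −0.05 and 0.46.

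A class of lower genes was low in wt library 2. For 27 of the 135 lower genes the value in wt library 2 was under 10% of that in wt library 1, a class defined after the values were seen. Of the 27, 19 were pseudogenes, and these made up most of the 22 pseudogenes among the 135 lower genes. Among the 98 higher genes 11 were pseudogenes. The share of pseudogenes among all genes tested is not given here, so these counts do not show an excess. Gata3, a regulator of luminal epithelium and lymphocytes, stood at 957, 23 and 258 in wt and at 1, 0 and 1 in MyD88ko. Cldn4, an epithelial tight-junction protein, stood at 213, 7 and 122 against 2, 1 and 0, and the DNA polymerase Polq at 348, 8 and 150 against 5, 1 and 7. Among the pseudogenes, Gm5070 stood at 2381, 44 and 372 against 13, 8 and 10, and Rps2-ps11 at 981, 21 and 189 against 8, 6 and 5. All 5 have the same order in wt, with library 1 highest and library 2 lowest. Since the class was chosen on wt library 2, the comparison with that library alone says nothing more about it. In the LPS-treated libraries 4 of the 27 were apart in the same direction, against 75 of the other 108 lower genes. The epithelial-type markers given above moved with this class, and their part in it was not tested.

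The genotype difference was also read in the 6 LPS-treated libraries, which share none with the untreated comparison but differ from it by LPS. Whether they came from the same animals or cultures as the untreated libraries is not given in the sources used here. If they did, differences between animals or cultures would recur, so the LPS values are not known to be an independent repeat. With the LPS-treated libraries in a fit of their own, 135 genes were called (1.09%). Of the 135 genes lower in untreated MyD88ko, 117 had the same sign with LPS (86.7%), as did 68 of the 98 higher genes (69.4%), beside 54.6% of all genes. Genotypes were apart in the same direction for 79 of the lower and 47 of the higher genes, against 10.4% of all genes tested. With LPS 45 of the lower and 14 of the higher genes were called in the same direction. None was called in the opposite direction by limma, and 1 and 2 were opposite at an unadjusted p under 0.05.

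For the genes described above, values with LPS stand beside the untreated ones. Saa3 stood at 9539, 6130 and 6455 in wt and at 23, 48 and 82 in MyD88ko (−7.29, adjusted p = 5.4e-07), and Cxcl5 at 6242, 6439 and 4193 against 192, 354 and 279 (−4.37, adjusted p = 1.27e-06). Cp stood at 314, 139 and 226 against 14, 3 and 1 (−5.45, adjusted p = 0.000419). Igfbp4 stood at 1333, 1606 and 1230 against 157, 177 and 281 (−2.79), with the untreated difference at −2.65. Pdgfra stood at 383, 589 and 380 against 131, 144 and 113 (−1.77), beside −1.84 untreated. Chodl stood at 64, 91 and 120 in MyD88ko against 4, 9 and 11 in wt (3.41), beside 3.40. Gata3 and Cldn4, in contrast, were near 0 in both genotypes with LPS: Gata3 at 3, 2 and 3 in wt and 19, 4 and 2 in MyD88ko, and Cldn4 at 6 or less in all 6 libraries. Of the contractile genes, Tagln did not overlap and stood at 12889, 10802 and 11888 in MyD88ko against 8712, 6173 and 6177 in wt (0.77, adjusted p = 0.165), whereas Cnn1 overlapped, at 3268, 3041 and 2616 against 2994, 2426 and 2946. Tested directly, a change of the genotype difference with LPS was called for 2 of all genes, the chemokine scavenger Ackr4 and the selenoprotein Selenom. Both were just under the threshold (limma interaction, adjusted p = 0.0468). A gene that was not called, Gata3 and Cldn4 among them, is not thereby shown to be unchanged.

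**Figure D5:**
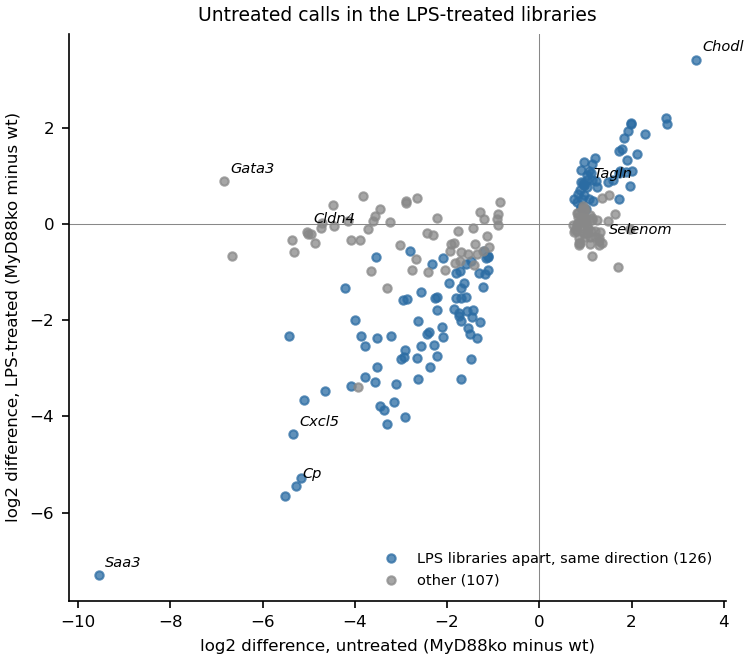
Log2 difference of the 233 called genes in the untreated libraries (x axis) and in the LPS-treated libraries (y axis), MyD88ko minus wt. The 126 genes whose LPS-treated genotypes are apart in the same direction (blue) include Saa3, Cxcl5, Cp and Chodl, and Gata3 and Cldn4 lie near 0 on the y axis.

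Combining these checks, 17 lower and 5 higher genes were called whichever untreated library was left out and also against wt library 2 alone. The lower ones include Saa3, Cp, Cxcl5, Ccl7, Ccl11, C1ra, Serping1, Nfkbiz, Mmp9, Adamdec1, Fgf7, Frzb, Sfrp1, Igfbp4 and Pdgfra, and the higher ones Acta1 and Map3k7cl. The authors' deposited table gave 230 genes an adjusted p under 0.05 for this comparison. Of those in the authors' deposited table, 171 were tested here and 112 were called. These were 95 of the 135 lower genes and only 17 of the 98 higher genes.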

How the data were processed

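Per the labels, libraries were made with QuantSeq, which reads the 3′ end of mRNA, and were sequenced on an Ion Proton. No molecular identifiers are named. The deposited values are scores: gene counts normalized across the libraries and rounded to whole numbers by the authors. TopHat2, Bowtie2, DESeq and build mm10 are named without version or role, per the submitters' processing notes. The p-values in the authors' deposited table come from the authors' own test, were not used for any call here, and are quoted only as a count. A further 48 per-sample columns hold other forms of the same samples and were not used.

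Because the values are not raw counts, all 12 samples were fitted together with limma 3.58.1 (R 4.3.3; trend and robust settings) on log2(value + 1), with 1 coefficient for each of the 4 groups and 8 residual degrees of freedom. Only genes measured in each sample whose mean reached 10 in some group were tested. Tests were two-sided, with Benjamini-Hochberg adjustment over all 12385 genes. The LPS libraries were also fitted on their own. The second wt library was tested alone by leaving out wt libraries 1 and 3 together.

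On simulated data with known changes of log2 size 1, 2 and 3 for this comparison, over 12385 genes, 12.1%, 85.1% and 97% of the changed genes were called, with 13 false calls, so smaller differences can be missed. The simulated libraries of a group were alike in composition and had a fixed dispersion. The real wt libraries were not alike, so these shares and false calls may not hold for them. Alternatives covered scaling, the variance model, the filter, the pseudocount, a minimum fold, the replicate block and each library left out.

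The comparison and the 33 pathway and 11 marker lists were chosen with earlier results of these data known. Named genes were the 12 lowest and 12 highest protein-coding calls by the smaller of the full and second-library differences (mean of at least 20, no overlap), up to 5 members of each list with the smallest p, the 8 calls that shrank most without wt libraries 1 and 3, and a set of named targets. Other list members called were named as well, after their values were seen. Some genes that this rule names are not reported here.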

Additional observations from a re-analysis of the deposited data

Results flagged for a closer look

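For 2 genes the genotype difference itself changed with LPS, by an interaction term in the limma fit over all genes (untreated minus LPS). Ackr4, a scavenging receptor for chemokines, stood untreated at 698, 1441 and 950 in wt and 743, 932 and 1003 in MyD88ko, and with LPS at 117, 153 and 196 in wt and 523, 890 and 629 in MyD88ko. The interaction was −2.27 (adjusted p = 0.0468): the untreated groups overlapped, and with LPS every MyD88ko library was higher.

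Selenom, a selenoprotein of the endoplasmic reticulum, named after its values were seen, stood untreated at 298, 280 and 305 in wt and 674, 774 and 841 in MyD88ko, and with LPS at 1581, 1248 and 1405 in wt and 976, 1389 and 904 in MyD88ko. The interaction was 1.76 (adjusted p = 0.0468): untreated, every MyD88ko library was higher, and with LPS the groups overlapped.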

How the results depend on the processing

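The 233 calls (135 lower, 98 higher) depend on the variance model and on single libraries. Without trend and robust settings 83 genes were called (58 lower, 25 higher), against a fold of 1.5 there were 43 (37 lower, 6 higher), and without wt libraries 1 and 3 together 37 (20 lower, 17 higher). Leaving out each untreated library in turn gave 64 to 412 calls, 45 to 261 lower and 19 to 151 higher: 83 without wt library 1, 412 without wt library 2, 150 without wt library 3, and 196, 88 and 64 without MyD88ko libraries 1, 2 and 3. No direction reversed among these counts or the named genes. Other scalings, filters, pseudocounts and a fit of the 6 untreated samples gave 178 to 241 calls. Similar totals did not mean the same genes: in the fit of the 6 untreated samples, 86 of the 135 lower and 62 of the 98 higher genes stayed called. Of 81 named calls, 34 were kept whichever untreated library was left out, 18 without wt libraries 1 and 3, and 17 in both. The cause of these shifts was not tested.

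With the replicate block, 278 genes were called (112 higher). Deviations of same-numbered untreated wt and MyD88ko libraries correlated across genes at 0.094, 0.048 and −0.028, and those of differently numbered ones at −0.124 to 0.077. These values do not tell whether libraries share an animal, culture or batch. Untreated libraries were not compared with LPS-treated ones in this way. Genes with means near 10 are limited by depth, and low wt values such as those of Slpi and Steap4 leave little room for a difference to show.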

Other observations

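Of the genes that were called whichever untreated library was left out and also without wt libraries 1 and 3, these 3 belong to none of the gene groups above and were named after their values were seen. Lgi2, a secreted leucine-rich repeat protein, stood at 248, 359 and 161 in wt and at 12, 58 and 29 in MyD88ko (−3.10 ± 0.42, limma adjusted p = 0.000607). Gpc4, a heparan sulfate proteoglycan of the cell surface, was higher in MyD88ko, at 1603, 1394 and 1617 against 707, 633 and 850 (1.08 ± 0.18, limma adjusted p = 0.00297). Gm5864, a processed pseudogene, was higher as well, at 89, 155 and 127 against 48, 29 and 40 (limma adjusted p = 0.00377). In none of the 3 did the genotypes overlap.

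The membrane proteins Tmem176a and Tmem176b, whose genes lie side by side in opposite directions, were both lower in MyD88ko. Tmem176a stood at 1107, 686 and 690 against 268, 368 and 260, and Tmem176b at 1014, 870 and 699 against 276, 455 and 331 (limma adjusted p = 0.00431 and 0.00297).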
